A study of Homo sapiens with 32 samples.

Results

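HEK293T cells were treated with emetine, an inhibitor of translation, while m6A methylation was blocked by STM2457, and their polyadenylated RNA was compared with that of cells given STM2457 and DMSO. Both groups received 20 µM STM2457 in 0.2% DMSO for 6 h, and the groups differed in the last 2 h, when one received 1.8 µM emetine and the other DMSO. The members were taken by these labels alone: 3 libraries of the emetine group and 3 of the DMSO group, 6 of the 32 libraries of the series, and every gene that passed the low-count filter, 15817 of 60662 gene IDs. The series asks how m6A in coding regions is tied to mRNA decay that depends on translation. A matched pair of groups without STM2457, 3 libraries with emetine and 3 with DMSO, belongs to the same experiment and is used here only to show where the response under STM2457 differed. HEK293T cells derive from human embryonic kidney and express the viral large T antigen, and every library comes from this 1 line. No label names separate cultures for the replicates, so p-values measure the spread between these libraries, which may be technical.

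Emetine binds the small ribosomal subunit and stops ribosomes from moving along mRNA. Several decay routes need moving or terminating ribosomes, among them nonsense-mediated decay (NMD), which removes mRNAs with a stop codon upstream of an exon junction, and the decay of many immediate early mRNAs. m6A is written on mRNA by a complex built around METTL3 and METTL14. It is read by YTHDF proteins, of which YTHDF2 recruits the CCR4-NOT deadenylase. STM2457 occupies the catalytic pocket of METTL3, so mRNA made in its presence carries less m6A. Cells in culture make heat shock proteins and ER chaperones in step with the supply of new, unfolded proteins.

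Promoters of 3 genes that rose and 3 that fell are shown first, because immediate early and heat shock genes are textbook cases of promoter elements that a stress signal acts on. They were chosen after the values had been seen. The JUN, DUSP8 and PPP1R15A promoters hold TGACNTCA, which covers the CRE bound by ATF and CREB factors and its JUN variant. The match in PPP1R15A is the CRE, that in JUN is the variant, and that in DUSP8 is neither. DUSP8 comes from the list of MAP kinase feedback inhibitors, and PPP1R15A is described below with the NMD substrates. The HSPA8, HSPA1B and DNAJB1 promoters hold GAANNTTC, the core of the heat shock element. Each line gives 56 bases 5′ to 3′ on the gene's strand from RefSeq (GRCh38.p14), with the motif in capitals. The starts used for these windows can differ from the ends of the annotated gene spans. The JUN, HSPA8 and DNAJB1 windows lie within the spans of their genes.
JUN (chr1:58784083-58784138, minus strand): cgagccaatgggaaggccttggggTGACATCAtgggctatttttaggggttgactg
DUSP8 (chr11:1572286-1572341, minus strand): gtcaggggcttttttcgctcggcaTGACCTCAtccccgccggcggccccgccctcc
PPP1R15A (chr19:48872339-48872394, plus strand): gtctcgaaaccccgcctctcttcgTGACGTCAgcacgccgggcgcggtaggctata
HSPA8 (chr11:123062155-123062210, minus strand): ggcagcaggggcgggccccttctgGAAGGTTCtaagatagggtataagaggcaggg
HSPA1B (chr6:31827609-31827664, plus strand): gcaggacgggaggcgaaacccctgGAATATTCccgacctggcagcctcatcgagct
DNAJB1 (chr19:14518413-14518468, minus strand): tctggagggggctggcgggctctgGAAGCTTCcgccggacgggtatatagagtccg

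Both motifs were searched on both strands in windows of 250 bases before to 50 after each annotated start, and GAANNTTC reads the same on both. TGACNTCA was found in 7.72% of 35116 promoters and in 8.46% of the genes tested that had a promoter entry. It was found in 5 of 23 immediate early genes with a promoter entry, and all 5 were among the 12 of these called higher with emetine. GAANNTTC was found in 6.77% of all promoters, in 6.53% of the genes tested and in 12 of 22 heat shock chaperone genes (54.5%). Of these 22 genes 19 were called lower, and 11 of the 19 held it (57.9%), a share near that of the list. A match says only that these letters lie in the window, and binding was not measured.

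The libraries held 21781514 to 27068380 counts in genes. The ERCC spike-ins, RNAs of known amount added to each sample, took 0.581% ± 0.00576 (SD, n = 3) of the counts with DMSO and 0.440% ± 0.0123 (SD, n = 3) with emetine, and the groups did not overlap. The exact two-sided permutation test gave p = 0.1, the smallest that 3 against 3 libraries allow. Relative to gene counts the spike-ins were thus lower in each emetine library, and whether this reflects RNA per cell or the amount of spike-in was not tested. On the first principal component of the 12 libraries, which held 62.8% of the variance, the emetine and DMSO libraries lay apart. All 8 HEK293T markers were at 1 CPM (counts scaled to library size) or more, with a summed level of 1380 to 1420 CPM with DMSO and 1070 to 1090 CPM with emetine. The summed fibroblast markers were at 25 to 26.2 and 19.5 to 21.8 CPM, of 8 keratin epithelium markers 2 reached 1 CPM with KRT5, KRT14, KRT6A and KRT1 at 0, and no hepatocyte marker reached 1 CPM. Blood and endothelium markers had 1 of 8 each at 1 CPM or more, with PTPRC, HBB and CLDN5 at 0. The part of these markers in the results was not tested. Replicate 2 of the DMSO group stood apart in mitochondrial transcripts, which took 1.96% of its counts against 3.55% and 3.11% in the other two libraries.

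Emetine changed the level of most expressed genes under STM2457. Of 15817 genes tested, 4805 (30.4%) were higher and 4654 (29.4%) lower with emetine at an adjusted p under 0.05 (edgeR quasi-likelihood test, Benjamini-Hochberg adjustment over all genes). The large changes went mostly upward: 911 genes (5.76%) rose 2-fold or more and 143 (0.904%) fell 2-fold or more. The CPM values of the groups did not overlap for 4606 of the genes called higher and 4402 of those called lower. These values are scaled so that the typical gene is unchanged, with a median log2 change of 0.00 over all genes tested. Scaled to the spike-ins instead, the median was 0.54, 11544 genes (73.0%) were called higher and 219 (1.38%) lower. Scaled to ribosomal protein genes, the median was 0.50, with 11544 genes higher and 353 lower. Every direction given here is therefore a direction relative to the typical gene, and the spike-in scale is the one that moves it most.

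**Figure D1:**
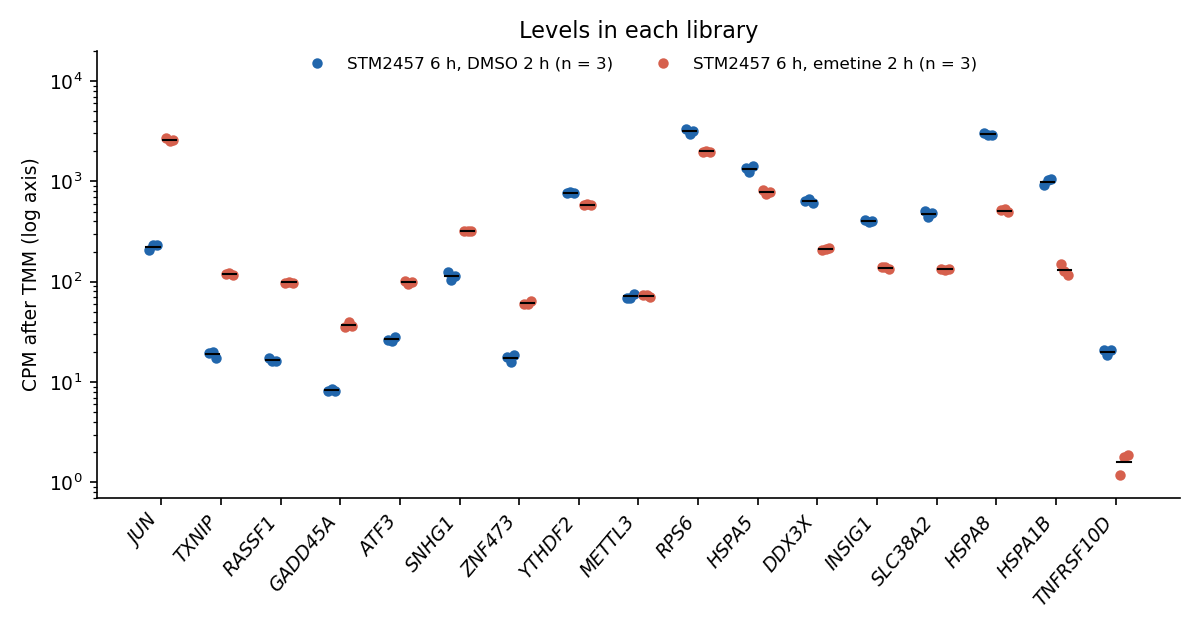
Level of 17 genes in each of the 6 libraries, in CPM after TMM scaling on a log axis. Points are libraries (blue, STM2457 with DMSO; red, STM2457 with emetine; 3 each) and black bars are group means. JUN lies at 206 to 235 CPM with DMSO and 2538 to 2704 CPM with emetine, TNFRSF10D at 18.7 to 20.9 and 1.20 to 1.88 CPM, and the METTL3 groups overlap.

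Relative to the typical gene, the most abundant genes were mostly lower with emetine. Genes were put in classes by their mean CPM with DMSO. These values also enter the change, so part of such a relation can come from the grouping. Below 10 CPM the medians had no steady order, at 0.207 under 1 CPM, 0.044 at 1 to 3 CPM and 0.065 at 3 to 10 CPM. Among the 605 genes above 300 CPM, 42 were called higher and 491 lower, with a median log2 change of -0.30. Among the 2744 genes at 10 to 30 CPM, 1235 were called higher and 718 lower, with a median of 0.10. The genes called lower together took 64.4% of all gene counts with DMSO and 54.7% with emetine. The 100 most abundant genes took 17.2% ± 0.705 (SD, n = 3) and 14.5% ± 0.133 (SD, n = 3). On the spike-in scale the median of the 605 most abundant genes was 0.23, against 0.54 for all genes.

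**Figure D2:**
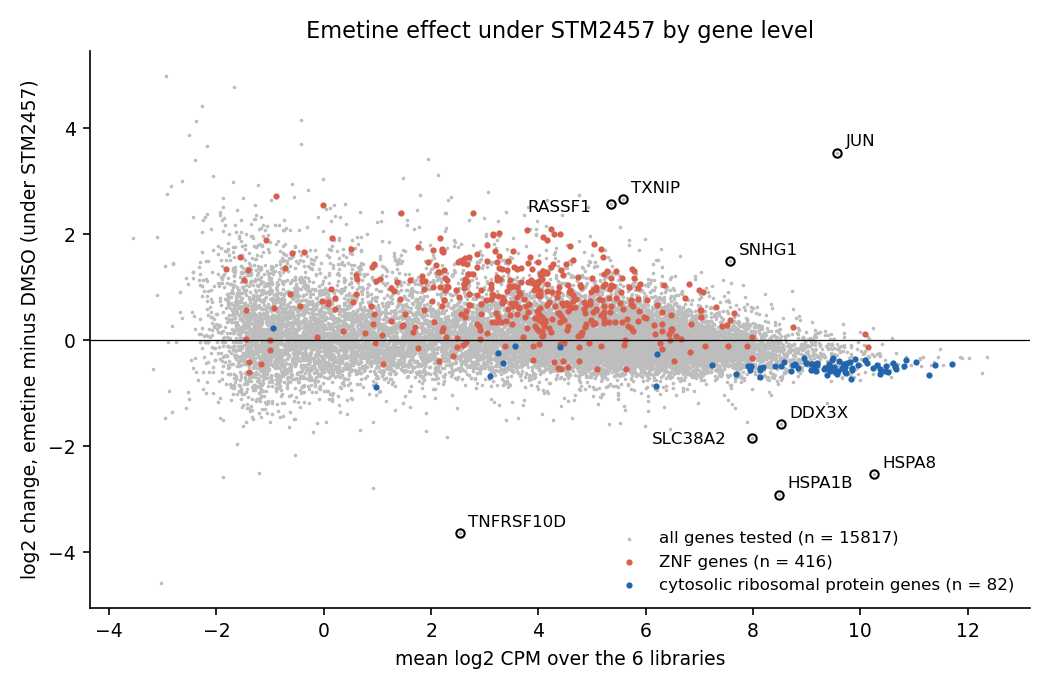
Log2 change with emetine under STM2457 (vertical axis) against mean log2 CPM over the 6 libraries (horizontal axis) for 15817 genes, with 416 ZNF genes in red and 82 cytosolic ribosomal protein genes in blue. The ZNF genes lie mostly above zero at low to middle levels, with a median of 0.73. The ribosomal protein genes form a band near -0.50 at high levels.

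JUN, the leucine zipper subunit of AP-1, had the largest rise of any coding gene at a mean log2 CPM of 2 or more. JUN (ENSG00000177606.6, chr1:58780788-58784327, minus strand) was at 206, 231 and 235 CPM in the DMSO libraries and at 2704, 2538 and 2561 CPM in the emetine libraries. The lowest emetine value lay far above the highest DMSO value, and the log2 change was 3.54 (SE 0.045, edgeR adjusted p = 2.4e-34). ATF3, a stress-induced partner of JUN, was at 26.2, 25.95 and 28.2 CPM with DMSO and 103, 95.7 and 100.1 CPM with emetine (log2 change 1.89). JUND rose from 43.4 ± 1.59 to 124 ± 5.69 CPM (SD, n = 3). The zinc finger factors KLF10 and KLF6 rose by 1.36 and 1.16. In all, 15 of 33 immediate early genes tested were higher and 7 lower, a share called higher of 45.5% against 30.4% of all genes, with a median log2 change of 0.25. The list thus held members in both directions relative to the typical gene, and 8 members rose 2-fold or more. On the spike-in scale 25 members were higher and 1 lower.

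Of the phosphatases that switch off MAP kinases, DUSP8 and DUSP10 were among the 15 coding genes with the largest rises. DUSP8, which acts on JNK and p38, was at 6.16, 5.77 and 5.65 CPM with DMSO and 33.7, 32.3 and 33.9 CPM with emetine. DUSP10, of the same family, went from 3.19, 3.14 and 2.51 to 14.3, 14.8 and 13.5 CPM. Both groups were far apart, with log2 changes of 2.51 (SE 0.072) and 2.28 (SE 0.111). Of 16 genes on the list of MAP kinase feedback inhibitors, 7 (43.8%) were called higher and 3 (18.8%) lower, beside 30.4% and 29.4% of all genes. MAP3K14, the kinase NIK of the noncanonical NF-kB pathway, rose from 9.55 ± 0.135 to 49.01 ± 1.28 CPM (SD, n = 3). RASSF1, a scaffold of the Hippo and apoptosis pathways, went from 17.4, 16.3 and 16.4 CPM to 97.9, 100.4 and 98.2 CPM (log2 change 2.57).

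TXNIP, the thioredoxin-binding arrestin that limits glucose uptake, and its relative ARRDC3 rose to a like extent. TXNIP was at 19.7, 19.9 and 17.5 CPM with DMSO and 119, 123 and 117 CPM with emetine, and ARRDC3 at 7.198, 6.83 and 7.205 and 45.5, 43.5 and 44.01 CPM. The log2 change was 2.65 for TXNIP and 2.65 for ARRDC3 (edgeR adjusted p = 7.48e-30 and 7.99e-26). Of 5 genes of this arrestin family tested, 4 were called higher and none lower, with a median of 1.26.

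The other coding genes with the largest rises included PIF1, a DNA helicase, and the ion channel TRPV1, at log2 changes of 2.40 and 2.71. TYW1B rose by 2.79, but it has a near-identical copy, TYW1, between which the authors' counting could split reads. The TRPV1 locus overlaps SHPK, and how the counting treated overlapping genes and strand is not given in the sources used here. The same limit applies to the overlapping genes ZNF324, ZNF473, SKIDA1, THAP9-AS1, SNHG4, SNHG20, TAF1D, CLK2, RBM5, TUBA1C, RBM15B, METTL3, HSP90AA1, DNAJB1, RPL27A, MRPS2, HOXB9, HOXB3, HOXA6, KCNJ14, ATP6V0E2-AS1, PCNX4, ADPRM, SPSB2, PTRH2, LENG9 and TMEM186, and to ZNF773 and ENSG00000187951, which overlap coding genes without a symbol. ZSCAN12 and ZNF773, genes of zinc finger proteins, rose by 2.51 and 2.39. SULT4A1, a brain sulfotransferase, and LRP5L rose by 2.36 and 2.11.

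Genes whose transcripts are known NMD substrates were mostly higher with emetine. Of 25 coding genes on this list, 19 (76.0%) were higher and 3 lower with a median of 0.25, beside the 30.4% of all genes called higher. GADD45A and GADD45B, growth arrest genes whose mRNAs are short-lived, are examples. GADD45A was at 8.23, 8.48 and 8.24 CPM with DMSO and 35.8, 39.6 and 36.1 CPM with emetine, and GADD45B at 21.95, 23.4 and 23.5 and 72.3, 64.9 and 66.3 CPM. PPP1R15A, which encodes the GADD34 subunit that reverses eIF2 alpha phosphorylation, was at 17.7, 18.5 and 18.6 CPM with DMSO and 56.1, 54.9 and 55.3 CPM with emetine. In each of these genes the lowest emetine library lay above the highest DMSO library, with log2 changes of 2.16, 1.56 and 1.6. Of the 19 NMD factors, whose own mRNAs include feedback targets of the pathway, 13 were higher and 4 lower. On the spike-in scale all 19 were higher. SMG9, a subunit of the SMG1 kinase complex that phosphorylates UPF1, rose from 38.1 ± 1.88 to 81.4 ± 3.98 CPM (SD, n = 3), a log2 change of 1.09. The kinase SMG1 rose by 0.38.

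Splicing factors that carry poison exons, cassette exons with an early stop codon, changed in both directions relative to the typical gene. Of 39 SR and HNRNP genes and relatives, 19 (48.7%) were higher and 12 (30.8%) lower, beside 30.4% and 29.4% of all genes. On the spike-in scale 37 were higher and none lower. PTBP2, the neuronal paralog of PTBP1 whose transcript that skips a neural exon is removed by NMD, was at 32.8, 32.2 and 32.7 CPM with DMSO and 121, 122 and 124 CPM with emetine (log2 change 1.91, SE 0.044). HNRNPLL was at 8.91, 6.700 and 7.84 CPM and 29.1, 33.3 and 29.98 CPM (log2 change 1.98). CLK2, a kinase that phosphorylates SR proteins, and RBM5, a regulator of 3′ splice site choice, rose by 0.95 and 0.91. SRSF6 rose by 0.69. The table gives 1 value for each gene, so transcripts with and without a poison exon cannot be told apart.

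Noncoding transcripts that are spliced and exported but hold no long reading frame stood among the largest rises. SNHG1 and its relatives are host genes, whose introns carry snoRNAs and whose spliced exons are known NMD substrates. SNHG1 was at 124, 104 and 113 CPM with DMSO and 321, 318 and 323 CPM with emetine, SNHG15 at 57.4, 57.4 and 57.8 and 174, 173 and 171 CPM, and SNHG17 at 45.9, 40.03 and 43.1 and 142, 139 and 143 CPM. Their log2 changes were 1.5, 1.59 and 1.72. SNHG20 and TAF1D rose by 1.49 and 1.21. Of 25 snoRNA host genes tested, 12 (48.0%) were higher, 8 of them 2-fold or more, and 8 (32.0%) were lower. The shares over all genes were 30.4% and 29.4%, so the share called lower was near that of all genes. The median was 0.06. Host genes encoding ribosomal proteins or translation factors are also members of the groups that fell, and their part in this count was not tested. On the spike-in scale 19 of the 25 were higher and none lower, with a median of 0.60. SNHG4 was called lower, with a log2 change of -0.64.

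Among other long noncoding RNAs, THAP9-AS1 rose from 21.7 ± 0.722 to 95.9 ± 2.26 CPM (SD, n = 3) and PVT1, the neighbour of MYC, from 3.67 ± 0.2199 to 12.7 ± 1.48 CPM. ENSG00000187951, a noncoding gene listed without a symbol, rose by 1.73. The falls were smaller: LINC00641 fell by 1.15 on the log2 scale, and MIR17HG, the host of a microRNA cluster, LINC01976 and LINC02609 changed by -0.58, -0.64 and -0.58. Scaled to spike-ins, these last 3 were at -0.04, -0.11 and -0.05 and did not pass the test, nor did SNHG4 at -0.10. Of 1757 long noncoding genes tested, 267 were higher and 132 lower, lower shares than among coding genes, where 4308 of 13179 were higher and 4421 lower. Most noncoding genes lie at low levels. Pseudogenes differed by type. Of 214 transcribed unprocessed pseudogenes, 119 were higher and 6 lower, with a median of 0.67. Of 265 processed pseudogenes, which are copies of spliced mRNA, 20 were higher and 56 lower, with a median of -0.28 that became 0.25 on the spike-in scale. Reads can be split between a pseudogene and its parent gene, so both values are uncertain.

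Genes of zinc finger proteins with ZNF symbols were mostly higher and had more members called higher than any other list. These mostly encode repressors with a KRAB domain, and their mRNAs are short-lived. Of 416 tested, 342 (82.2%) were higher, 138 of them 2-fold or more, and 20 were lower, with a median log2 change of 0.73 beside 0.00 for all genes. ZNF14 was at 9.27, 8.48 and 9.31 CPM with DMSO and 37.7, 39.7 and 37.8 CPM with emetine. ZNF473, a factor of histone mRNA processing, was at 17.9, 15.9 and 18.7 and 59.8, 59.3 and 64.9 CPM. ZNF324 was at 20.02, 19.8 and 19.8 and 64.3, 67.9 and 63.3 CPM, and ZNF134 at 19.7, 23.2 and 21.2 and 63.7, 62.3 and 64.2 CPM. In each the groups lay far apart, with log2 changes from 1.57 for ZNF134 to 2.09 for ZNF14. Reads of zinc finger genes in clusters can be shared between close copies.

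Some replication-dependent histone genes were higher, although their mRNAs mostly lack a poly(A) tail and only residual or polyadenylated forms enter these libraries. Of 58 listed genes 25 passed the low-count filter, of which 14 were called higher, none lower and 11 were not called. Several of them passed the filter through their emetine libraries, such as H4C14 at a mean of 0.140 CPM with DMSO and 2.59 CPM with emetine, so the balance of this count is partly set by the filter. H2AC6, which also makes polyadenylated mRNA, was at 8.098, 6.87 and 7.05 CPM with DMSO and 26.9, 24.3 and 23.8 CPM with emetine. H2BC5 was at 5.58, 4.198 and 4.46 and 8.58, 8.45 and 8.45 CPM. The log2 changes of 1.77 and 0.84 passed the test (edgeR adjusted p = 4.51e-18 and 2.15e-08). The decay of histone mRNA at the end of S phase is known to need translation near the stem-loop.

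**Figure D3:**
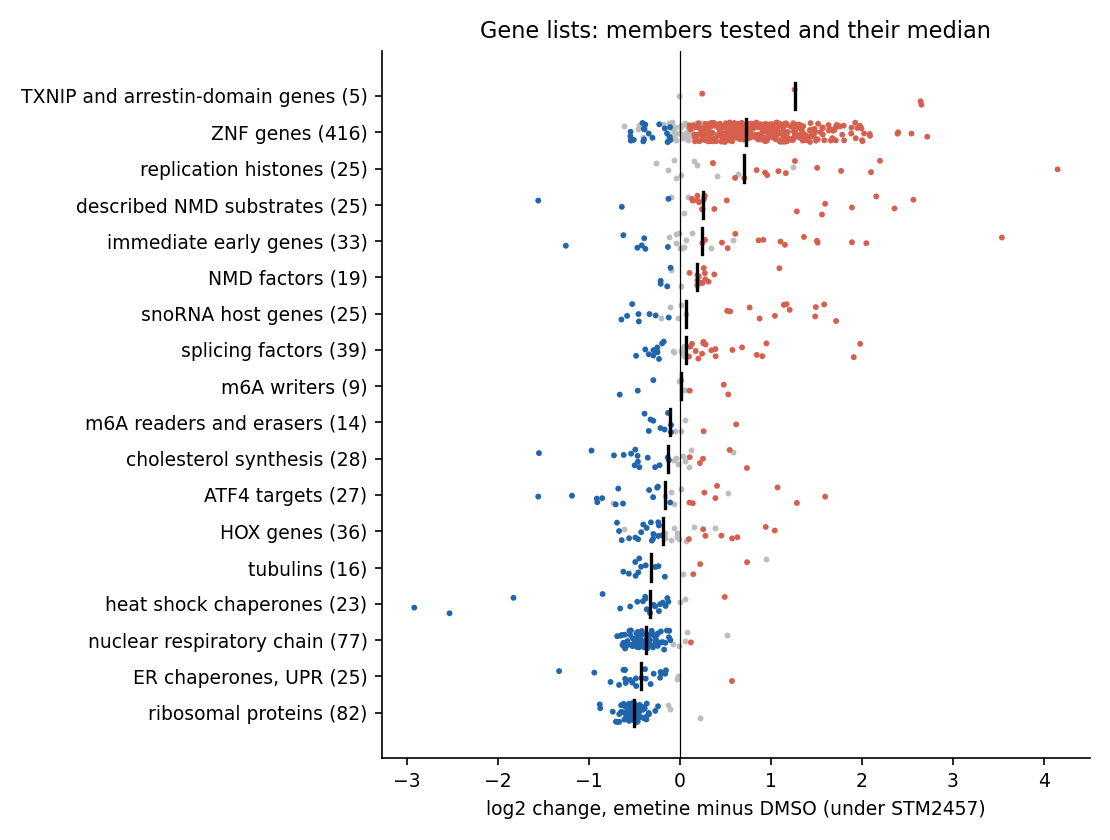
Log2 change with emetine under STM2457 (horizontal axis) for the members tested of the gene lists named at the left, with the number tested in brackets. Points are genes (red, called higher; blue, called lower; grey, not called) and black ticks are medians. The ZNF and arrestin-family lists lie to the right, with medians of 0.73 and 1.26, and the ribosomal protein list to the left, with a median of -0.50.

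The steepest falls among genes of protein folding were those of heat shock chaperones. HSPA8, the constitutive HSC70 (ENSG00000109971.14, chr11:123057489-123063230, minus strand), was at 3038, 2892 and 2925 CPM with DMSO and 516, 529 and 489.8 CPM with emetine. HSPA1B, an inducible HSP70 (ENSG00000204388.7, chr6:31827735-31830255, plus strand), was at 909.8, 1021 and 1044 and 151, 126 and 116 CPM. In both genes every emetine library lay far below every DMSO library, and the log2 changes were -2.53 (SE 0.039) and -2.92 (SE 0.069). HSPA1A, a near-identical copy of HSPA1B, had only 8.59, 8.82 and 10.03 CPM with DMSO and 2.91, 2.65 and 2.14 CPM with emetine, and reads of the pair can be split by the counting. DNAJB1, the HSP40 that drives HSP70, was at 256, 257 and 263 and 145, 145 and 141 CPM. DNAJA1 changed by -0.65 and HSP90AA1, the inducible HSP90, by -0.47. HSF2, a heat shock transcription factor, was the exception and rose by 0.49. Of 23 heat shock genes tested, 20 (87.0%) were lower beside 29.4% of all genes, and 1 was higher, with a median of -0.33. On the spike-in scale the median was 0.21 with 4 lower and 12 higher, so the fall of the list held relative to the typical gene, and HSP90AA1 turned to 0.07, which did not pass the test.

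The chaperones of the endoplasmic reticulum and the targets of the unfolded protein response were lower too. HSPA5, the chaperone BiP, was at 1346, 1243 and 1413 CPM with DMSO and 827, 754 and 783 CPM with emetine (log2 change -0.76). HERPUD1, a factor of ER-associated degradation, was at 77.9, 73.1 and 80.4 and 31.9, 29.6 and 30.97 CPM (log2 change -1.32). Of 25 genes tested, 22 were lower and 1 higher with a median of -0.42, which became 0.12 on the spike-in scale. Of 27 ATF4 targets, 8 (29.6%) were higher, near the 30.4% of all genes, and 13 (48.1%) were lower, beside 29.4%. Their median was -0.17, which became 0.36 on the spike-in scale. SLC7A5, a subunit of the LAT1 transporter of large amino acids, was at 977, 975 and 1056 and 466, 428 and 430.4 CPM. SLC38A2, the neutral amino acid transporter SNAT2, was at 508, 437 and 486 and 133, 132 and 134 CPM. STC2, a secreted glycoprotein, went the other way, from 136, 127 and 137 to 298, 270.4 and 276 CPM. Solute carriers as a class held 35 genes called higher and 100 called lower of 219, with a median of -0.14 that became 0.40 on the spike-in scale. DDIT4, an inhibitor of mTORC1, changed by -0.91.

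The largest fall at a mean log2 CPM of 2 or more was that of TNFRSF10D, a decoy receptor of the death ligand TRAIL. It was at 20.8, 18.7 and 20.9 CPM with DMSO and 1.198, 1.78 and 1.88 CPM with emetine, a log2 change of -3.64 (SE 0.124, edgeR adjusted p = 2.05e-22). DDX3X, an RNA helicase of translation initiation encoded on the X chromosome, was at 639.8, 661 and 606 and 207, 214 and 215 CPM. ZC3HAV1, the antiviral protein ZAP that binds CpG-rich RNA, was at 109, 114 and 113 and 36.2, 38.00 and 34.7 CPM. None of these genes had overlapping groups. The WNT receptor FZD8 changed by -1.58. The F-box gene FBXL18, SKIDA1 and TMEM168 changed by -1.57, -1.51 and -1.47. CXCR4, the receptor of CXCL12, went from 34.95, 26.5 and 36.7 to 11.98, 11.97 and 10.3 CPM. ZMAT3, a p53 target, changed by -1.47. The p53 target list as a whole held 10 of 27 genes higher (37.0%) and 11 lower (40.7%), beside 30.4% and 29.4% of all genes. Its median was -0.06, which became 0.47 on the spike-in scale.

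Sterol genes were mostly lower. INSIG1, which retains the SREBP complex in the endoplasmic reticulum, was at 417, 396 and 401 CPM with DMSO and 141, 141 and 134 CPM with emetine (log2 change -1.55). MSMO1 and SQLE, enzymes of cholesterol synthesis, changed by -0.97 and -0.72. Of 28 genes of this pathway, 15 were lower and 5 higher, with a median of -0.12 that became 0.41 on the spike-in scale.

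Messages of the ribosome and the respiratory chain were mostly lower relative to the typical gene. Of 82 cytosolic ribosomal protein genes, 79 (96.3%) were lower and none higher, with a median of -0.50 that became 0.04 on the spike-in scale, where 3 were lower and 9 higher. RPS6 was at 3325, 2964 and 3138 CPM with DMSO and 1978, 2026 and 1947 CPM with emetine, and RPL27A at 1073, 993 and 1039 and 679, 689 and 667 CPM. These log2 changes of -0.66 and -0.61 lay within the range of the list, from -0.88 to 0.22. EEF1A1, the elongation factor that delivers tRNA, and PABPC1, the poly(A)-binding protein, have the same 5′-terminal oligopyrimidine start as ribosomal protein mRNAs and changed by -0.62 and -0.63. EEF2K, the kinase that inhibits elongation, rose by 0.71. Of 77 nuclear genes of the respiratory chain, 71 were lower and 1 higher, with log2 changes from -0.69 to 0.52. Their median of -0.37 became 0.16 on the spike-in scale. COX7C was at 331, 314 and 332 and 215, 218 and 210.5 CPM. Of 16 tubulin genes, whose mRNAs are degraded on the ribosome when free tubulin is plentiful, 11 were lower and 3 higher with a median of -0.32, and 0.22 on the spike-in scale. TUBA1C changed by -0.62.

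The 13 coding genes of mitochondrial DNA depended on 1 library. MT-ND2, a subunit of complex I, was at 2171, 1160.3 and 1864 CPM with DMSO and 1154, 1049 and 1226 CPM with emetine, and its groups overlapped at DMSO replicate 2. Of the 13 genes, 8 were lower and none higher with all libraries, and 13 were lower without that replicate. The direction turned on the spike-in scale, with 10 higher and none lower, and the median went from -0.32 to 0.23. In no gene of this list did the groups stay apart in CPM. The same omission left the other counts close: over all genes, 4395 were then higher and 4718 lower.

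The genes that make and read m6A changed in both directions relative to the typical gene, with log2 changes from -0.66 to 0.62. METTL3, the target of STM2457, was at 69.5, 68.9 and 75.9 CPM with DMSO and 73.3, 72.9 and 70.8 CPM with emetine. The groups overlapped, and the log2 change of 0.02 did not pass the test (SE 0.044, edgeR adjusted p = 0.752). METTL14, its partner, rose from 65.3 ± 2.27 to 91.4 ± 1.100 CPM (SD, n = 3), and CBLL1, another subunit of the writer, from 95.7 ± 3.94 to 138 ± 2.67 CPM. ZC3H13, which anchors the writer in the nucleus, changed by -0.66, RBM15B, which guides it to RNA, by -0.46, and METTL16, which methylates U6 and MAT2A RNA, by -0.29. Of 9 writer genes, 3 were higher and 3 lower (33.3% each), near the 30.4% and 29.4% of all genes. On the spike-in scale 7 were higher and none lower, with a median of 0.55. YTHDF2 was at 759.5, 774 and 764 CPM with DMSO and 583, 590.4 and 585 CPM with emetine, a fall of every emetine library below every DMSO library (log2 change -0.39, SE 0.032, edgeR adjusted p = 1.74e-12), and RBM15B, METTL16 and YTHDF2 turned to 0.07, 0.24 and 0.15 on the spike-in scale, where only METTL16 of these 3 passed the test. YTHDC2, a reader with a helicase domain, rose by 0.62. Of 14 readers and erasers, 9 were lower and 2 higher with a median of -0.11, which became 0.42 on the spike-in scale. In the CCR4-NOT and PAN deadenylase complexes, 9 of 15 genes were higher and 4 lower. CNOT4 at 0.95 and CNOT10 at 0.65 were among those higher. On the spike-in scale all 15 were higher.

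Most of the response was shared with cells that had not received STM2457. There, 5360 genes (33.9%) were called higher and 4477 (28.3%) lower with emetine. The 2 comparisons share no library, and the log2 changes had a Pearson r of 0.895 across 11182 genes with a mean log2 CPM of 2 or more, which share genes, depth and fit and are no independent replicates. Of 7732 genes called in both, 7416 (95.9%) had the same sign. JUN rose by 3.29 without STM2457 and 3.54 under it, and TNFRSF10D changed by -3.53 and -3.64. ARRDC3 rose by 2.72 and 2.65, and INSIG1 changed by -1.55 and -1.55.

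**Figure D4:**
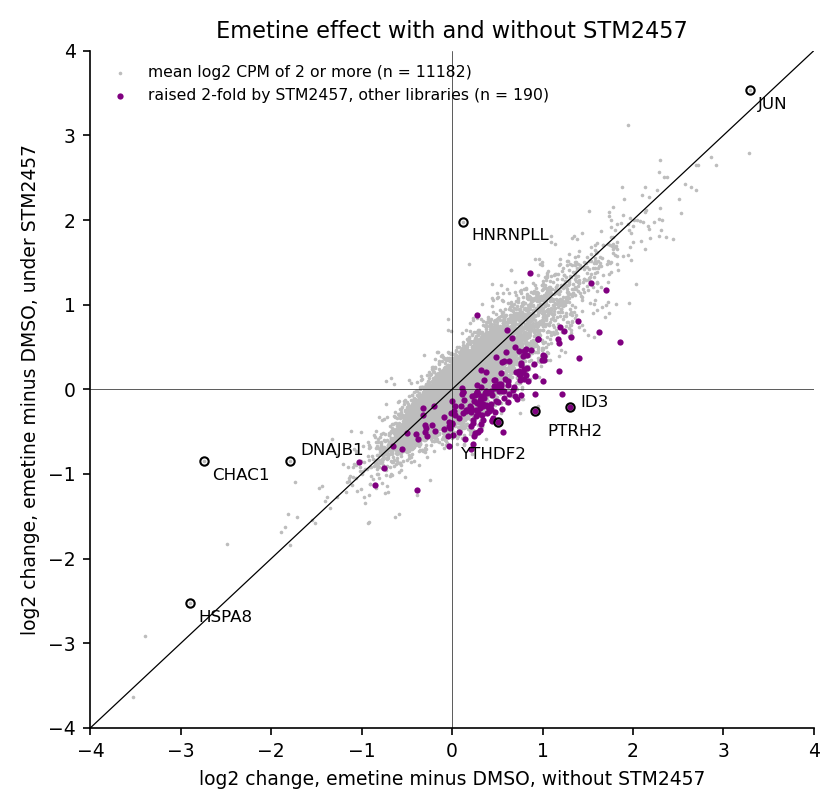
Log2 change with emetine under STM2457 (vertical axis) against that without STM2457 (horizontal axis) for 11182 genes, with the line of equal change. Purple points are 190 genes raised at least 2-fold by STM2457 in other libraries, and most of them lie below the line, with medians of -0.08 under STM2457 and 0.41 without it.

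The difference between the 2 responses was tested as an interaction over the 12 libraries. It was more negative under STM2457 for 1748 genes (11.1%) and more positive for 1062 (6.71%) at an adjusted p under 0.05. YTHDF2 was the clearest of the m6A genes. Without STM2457 it went from 231 ± 7.19 CPM to 328 ± 6.31 CPM (SD, n = 3), a log2 change of 0.50, whereas under STM2457 it went from 766 ± 7.57 to 586 ± 3.81 CPM. Its level with DMSO was thus higher under STM2457, and the difference of the changes was -0.89 (SE 0.046, edgeR adjusted p = 9.18e-16). METTL16 and METTL14 had differences of -0.56 and -0.29. Of the 9 writer genes, 6 had a more negative change under STM2457 and none a more positive one, but on the spike-in scale 1 and on the ribosomal protein scale 4 were more negative. Without STM2457, 7 of them were higher with emetine and 2 lower.

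The more negative differences included targets of BMP signalling and genes with few exons. ID3, an inhibitor of basic helix-loop-helix factors and a BMP target, went from 35.4 ± 0.371 to 87.6 ± 2.69 CPM (SD, n = 3) without STM2457 and from 159 ± 5.84 to 138 ± 4.700 CPM under it, a difference of -1.51 (edgeR adjusted p = 1.83e-19). Emetine thus raised ID3 without STM2457, and under STM2457 its log2 change was -0.20, or 0.33 on the spike-in scale. Of 14 BMP and TGF beta targets, 8 had a more negative change under STM2457 and none a more positive one, and on the spike-in and ribosomal protein scales 3 and 5 were more negative. HEY1, a NOTCH and BMP target, rose by 0.88 without and 0.35 under STM2457. SKI, an inhibitor of SMADs, changed by -0.78 and -0.85, with a difference that did not pass the test (-0.07, edgeR adjusted p = 0.387). PTRH2, a peptidyl-tRNA hydrolase, had a difference of -1.17, going from 38.2 ± 3.44 to 71.8 ± 0.923 CPM without STM2457 and from 83.9 ± 4.67 to 70.4 ± 3.45 CPM under it. MED18, a subunit of Mediator, ADPRM, SPSB2, LENG9 and TMEM186 had differences of -1.06, -1.29, -1.28, -1.04 and -1.04.

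Among HOX genes, the position genes of the body axis, 16 of 36 (44.4%) had a more negative change under STM2457 and none a more positive one. The share was 11.1% over all genes and 42.6% among coding genes with 2 exons at a mean log2 CPM of 2 or more. Whether the HOX share goes beyond that of genes with like exon numbers was not tested. On the spike-in and ribosomal protein scales 8 and 12 were more negative. Under STM2457, 8 of 36 were higher and 17 lower with emetine, whereas without it 17 were higher and 3 lower. The median under STM2457 was -0.18, and 0.35 on the spike-in scale. HOXD13 was at 372, 364 and 386 CPM with DMSO and 245, 235 and 228 CPM with emetine under STM2457, a log2 change of -0.67, and had a change of -0.03 without STM2457 that did not pass the test. HOXB9 and HOXA6 had differences of -0.48 and -1.15. HOXB3 rose in both settings, by 0.94 and 0.98. ZNF genes rose in both settings too, but the change was more negative under STM2457 for 107 of 416 (35 on the spike-in scale) and more positive for 14 (7), with medians of 0.73 under it and 0.93 without it.

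The more positive differences were led by CHAC1 and HNRNPLL. CHAC1, an ATF4 target that degrades glutathione, fell from 6.56 ± 0.246 to 0.976 ± 0.162 CPM (SD, n = 3) without STM2457 and from 13.5 ± 1.42 to 7.48 ± 0.455 CPM under it, a difference of 1.89 (SE 0.187). HNRNPLL was at 47.6 ± 1.28 and 51.6 ± 1.98 CPM without STM2457, where the change did not pass the test (edgeR adjusted p = 0.0539), and at 7.82 ± 1.104 and 30.8 ± 2.25 CPM under it, a difference of 1.86. The DMSO level of HNRNPLL was thus the one that differed most between the settings. DNAJB1 fell less under STM2457, by a difference of 0.94, and 7 of 23 heat shock genes had a more positive difference (4 on the spike-in scale) and none a more negative one. STC2, PCNX4, KCNJ14 and ZNF324B had differences of 0.63, 0.88, 1.29 and 0.79. The pseudogene ENSG00000215154 and the antisense RNA gene ATP6V0E2-AS1 had differences of 1.18 and 1.09. Proteasome genes were lower without STM2457 in 30 of 34 cases and under it in 16, with 15 differences more positive and none more negative, and 12 of 33 mitosis genes were more positive with none more negative. These counts fell to 1 and 2 on the spike-in scale, and under STM2457 31 proteasome genes were then higher and none lower, with a median of 0.42 in place of -0.11.

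Genes that STM2457 itself raised in other libraries were raised less, or lowered more, by emetine once STM2457 was present. The list was taken from the knockdown experiment of the series, in which 269 genes rose at least 2-fold after 6 h of STM2457 in cells without knockdown, and 256 of these were tested here. None of those libraries enters the present comparison. Under STM2457, 64 of the 256 were higher with emetine and 97 lower, with a median log2 change of -0.09, and without STM2457 the median was 0.34. The difference was more negative for 161 (62.9%) and more positive for 3, beside 11.1% and 6.71% of all genes. On the spike-in scale the direction under STM2457 turned, with 172 higher and 8 lower and a median of 0.45, while 109 differences were more negative and 3 more positive. A second list, of 354 genes raised after 9 h of STM2457 in another experiment, had medians of -0.23 and 0.16, with 123 differences more negative and 5 more positive. Its median on the spike-in scale under STM2457 was 0.30, with 69 differences more negative and 5 more positive. The 381 genes lowered at 6 h had medians of 0.30 under STM2457 and 0.27 without, with 12 more negative and 28 more positive (1 and 16 on the spike-in scale). YTHDF2 and ID3 above had higher DMSO levels under STM2457 than without it, as did PTRH2, and in each of the 3 genes the emetine levels of the 2 settings lay closer together on the log scale than the DMSO levels.

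The difference also followed the structure of the gene. For 10802 coding genes at a mean log2 CPM of 2 or more, the coding length of the annotated transcript was divided by its number of exons, a measure chosen after the data had been seen. The genes were put in 5 equal groups by this measure. It stands for how densely exon junctions lie in the message. Exon junction complexes are known to keep m6A out of short internal exons. Without STM2457 the median log2 change with emetine was -0.13 in the group of genes with the shortest coding stretch per exon (26.0 to 106 bases), -0.07, -0.03 and 0.09 in the next, and 0.19 in the group with the longest (235 to 3774 bases). Under STM2457 the medians were -0.08, -0.01, -0.01, -0.01 and -0.01. The gradient seen without STM2457 was thus not present under it, apart from the lowest group. The values of the longest group rested in part on ZNF genes. With these left out, the medians under STM2457 were -0.08, -0.01, -0.02, -0.01 and -0.07. Without STM2457 the longest group was then at 0.13.

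Counts of the tested difference followed the same order. It was more negative under STM2457 for 69 of 2162 genes (3.19%) in the lowest group and for 94, 176, 460 and 833 genes in the next, the last being 38.5% of 2161. It was more positive for 299, 312, 205, 125 and 63. On the spike-in scale the genes called more negative numbered 3, 12, 20, 114 and 293, so the order was kept with fewer calls. Without the ZNF genes, whose zinc fingers often lie in a single long exon, the highest group held 808 of 2089 genes more negative and 67 more positive. By exon number, 203 of 476 genes with 2 exons were more negative, and 107 of 1553 genes with over 20 exons. Genes of the STM2457-raised list had a median of 3 exons, and all 10802 coding genes of 9.

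**Figure D5:**
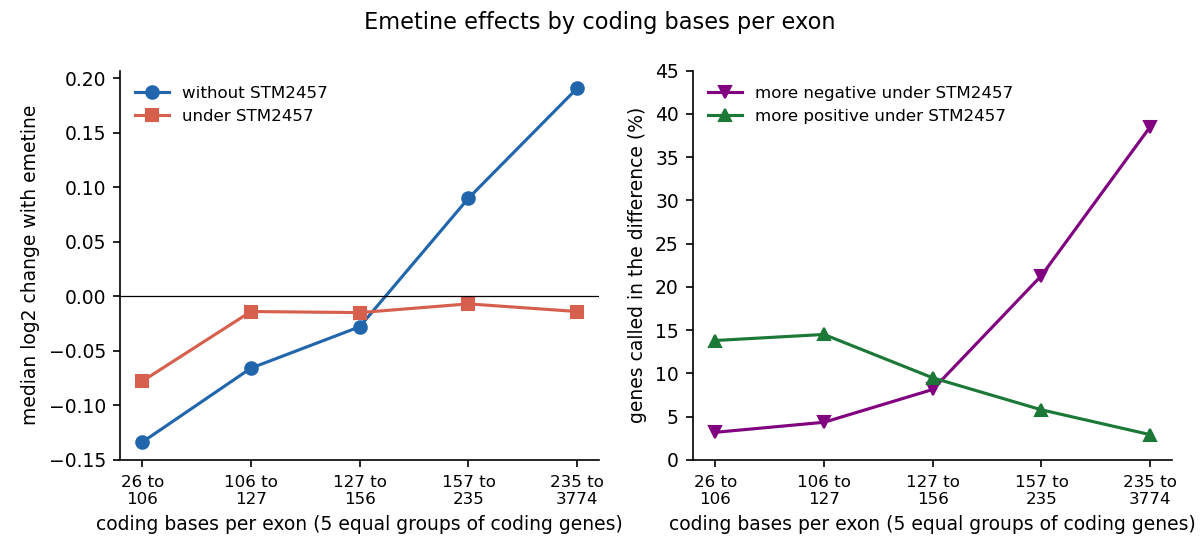
Emetine effects in 5 equal groups of 10802 coding genes ordered by coding bases per exon (horizontal axes). Left, median log2 change without STM2457 (blue) and under it (red); right, percent of genes whose emetine effect was more negative (purple) or more positive (green) under STM2457. The blue line climbs from -0.13 to 0.19 while the red line ends at -0.01, and the purple line climbs from 3.19% to 38.5%.

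Within each setting, the density of GGACT, a common form of the m6A motif, in the coding sequence gave no such gradient. The median log2 change under STM2457 was -0.11 in 2563 genes without the motif and 0.03 with up to 1 per kb. It was 0.01 with 1 to 2 per kb and -0.08 above 2 per kb. Without STM2457 it was -0.10, 0.05, 0.03 and -0.04. The difference between the settings was weakly graded. It was more negative for 11.8% of genes without the motif, 16.1% with up to 1 per kb and 16.6% above 2 per kb. It was more positive for 10.3%, 10.1% and 7.33%. Its median went from 0.005 without the motif to -0.021 above 2 per kb. Median density was 1.055 per kb in genes called more negative and 0.8818 in those called more positive. Coding length itself was graded in both settings: under STM2457 the medians of 5 equal groups from short to long were -0.22, -0.07, 0.00, 0.08 and 0.08. Short coding sequences include those of the ribosomal proteins and the respiratory chain. For the AU-rich element TATTTAT in the 3′ UTR, the medians under STM2457 showed no gradient. The median was -0.04 in 7240 genes without it and -0.03 in 582 genes with 3 or more. The element was found in 48.1% of the 52 coding genes lower by 2-fold or more. It was found in 30.9% of the 366 higher by 2-fold or more and in 33.0% of all 10802. These medians are descriptions across genes, which are not independent replicates.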

How the data were processed

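Polyadenylated RNA of HEK293T cells was sequenced with a strand-specific kit, per the labels. The deposited values are gene counts; the submitters' processing notes list STAR 2.7.3a and GRCh38.p12, featureCounts from Subread 2.0.0, SAMtools 1.9, cutadapt 1.18 and 4.0, Trimmomatic and FastQC 0.11.8. For the annotation release and strand setting, the sources used here name none. ERCC rows (92) were kept out of library sizes. Ensembl gene IDs were matched to symbols through a reference name table (60261 of 60662); gene types, gene coordinates (GRCh38) and transcript features came from GENCODE release 29, which held 58577 of the IDs.

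The 12 libraries of the emetine experiment (4 groups of 3) were fitted together without covariates in edgeR 4.0.16 (R 4.3.3, limma 3.58.1): TMM scaling, filterByExpr (15817 genes), quasi-likelihood F test, Benjamini-Hochberg adjustment over all genes, threshold 0.05. The biological coefficient of variation was 3.33%. CPM values use TMM library sizes. The contrasts were: emetine minus DMSO under STM2457, the same without STM2457, and their difference. The analysis was tested on simulated counts.

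Named genes were METTL3, YTHDF2, the 15 coding and 5 long noncoding genes with the largest change in each direction (called, no overlap, mean log2 CPM of at least 2), up to 6 members of each list by smallest p, and the 8 largest differences in each direction. Not all of these are described, and 1 is left out as not reported here. The members and the lists were chosen with earlier results of these data known, and the lists were not tested as sets. Alternatives were DESeq2 1.42.0, other scalings and filters, a replicate block, the 6 libraries alone and leaving out each library.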

Additional observations from a re-analysis of the deposited data

Results flagged for a closer look

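Each value below is the emetine effect under STM2457 minus that without it, on the log2 scale, for a gene whose difference passed the interaction test (edgeR adjusted p under 0.05, 12 libraries). The effect was more positive under STM2457 for 1062 genes and more negative for 1748. On the spike-in scale these counts were 231 and 474, so a difference given below need not pass there. No snoRNA host, deadenylase or translation factor gene then had a called difference in either direction. No immediate early gene, NMD substrate or NMD factor had a more positive one, and 1 m6A writer gene had a more negative one.

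Among the genes with the largest rises, the difference was JUN 0.25, TYW1B -0.50, TXNIP -0.26, RASSF1 0.28, PIF1 0.52, MAP3K14 -0.34, GADD45A 0.38, ATF3 -0.28 and PPP1R15A 0.31. All of these rose in both settings, so the difference lies in the size of the rise. Among noncoding genes it was SNHG15 -0.22, SNHG1 -0.25, LINC00641 0.29, ENSG00000215154 1.18 and ATP6V0E2-AS1 1.09. Among zinc finger and histone genes it was ZNF324 0.57, ZNF473 0.46, ZNF14 0.35, ZNF134 -0.26, ZNF324B 0.79, H2AC6 -0.67 and H2BC5 -0.51.

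Among the genes with the largest falls and the chaperones it was HSPA1B 0.48, HSPA8 0.37, DNAJB1 0.94, HSP90AA1 0.16, ZC3HAV1 0.22, ZMAT3 0.34, FZD8 -0.65, FBXL18 -0.64, SKIDA1 -0.89 and TMEM168 -0.89. The heat shock genes of this list fell less under STM2457, and the last 4 genes fell more. Among stress and nutrient genes it was SLC7A5 -0.18, DDIT4 -0.27, STC2 0.63 and CHAC1 1.89. Among genes of RNA decay, splicing and translation it was SMG9 0.31, CNOT10 0.29, HNRNPLL 1.86, EEF1A1 -0.14, EEF2K 0.24, MRPS2 -0.54 and MRPL36 -0.70.

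Among the m6A genes it was YTHDF2 -0.89, METTL16 -0.56, METTL14 -0.29, RBM15B -0.18 and YTHDC2 0.23. Among developmental genes it was ID3 -1.51, HEY1 -0.53, HOXD13 -0.63, HOXB9 -0.48 and HOXA6 -1.15. The other genes with the largest differences were KCNJ14 1.29, PCNX4 0.88, ADPRM -1.29, SPSB2 -1.28, PTRH2 -1.17, MED18 -1.06, LENG9 -1.04 and TMEM186 -1.04.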

How the results depend on the processing

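The counts of genes kept within 1.5 times the reported ones under DESeq2, DESeq2 size factors, both low-count filters, the fit of the 6 libraries alone and the omission of any 1 library. DESeq2 called 4435 genes higher and 4493 lower. Leaving out 1 library gave 4315 to 4778 genes higher and 4360 to 4971 lower under STM2457, 4669 to 5379 and 4228 to 4843 without it, and 762 to 1398 more positive and 1426 to 1744 more negative differences.

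Scaling moved them. On the spike-in scale 11544 genes were higher and 219 lower under STM2457, 11533 and 228 without it, with 231 differences more positive and 474 more negative. Scaled to ribosomal protein genes the counts were 11544 and 353, 11553 and 378, and 934 differences were more negative and 1049 more positive, so that their balance turned. The cause was not tested.

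Log2 changes that turned direction on the spike-in and ribosomal protein scales, in this order, were HSP90AA1 0.068 and 0.036, RBM15B 0.073 and 0.04, METTL16 0.24 and 0.21, YTHDF2 0.15 and 0.12, MRPS2 0.093 and 0.06, ID3 0.33 and 0.30, SPSB2 0.47 and 0.44, PTRH2 0.28 and 0.25, HOXA6 0.34 and 0.30, MED18 0.034 and 0.001, and TMEM186 0.25 and 0.22. Of these, HSP90AA1, RBM15B, MRPS2, MED18 and YTHDF2 did not pass the test on the spike-in scale. Another 16 genes of the text kept their direction there and no longer passed: COX7C, DNAJA1, EEF1A1, HOXB9, HOXD13, LINC01976, LINC02609, MIR17HG, MRPL36, MT-ND2, PABPC1, RPL27A, RPS6, SNHG4, TUBA1C and ZC3H13. With 1 library left out, METTL3 ranged from -0.026 to 0.049 and SPSB2 from -0.184 to 0.027, neither of which passed the test with all libraries.

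Same-numbered replicates did not deviate together (r 0.042, 0.199 and -0.053 for numbers 1, 2 and 3), so the numbers were not read as pairs. With the replicate block, 4789 genes were higher and 4665 lower under STM2457, 5358 and 4480 without it, and 1068 and 1770 differences were more positive and more negative. Counts below about 1 CPM leave small changes undetectable at this depth, and 2057 of 2644 genes under 1 CPM were not called.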

Other observations

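Further gene groups were counted in the same fit under STM2457, beside 30.4% of all genes higher and 29.4% lower. Of 77 mitochondrial ribosomal protein genes, 13 were higher and 49 lower with emetine, with a median log2 change of -0.20 that became 0.34 on the spike-in scale. MRPS2, of the small subunit, was at 229, 238 and 233 CPM with DMSO and 169, 174 and 171 CPM with emetine, and MRPL36, of the large subunit, at 55.6, 54.1 and 57.2 and 35.1, 34.2 and 37.1 CPM. In both genes the emetine libraries lay below the DMSO libraries, whereas without STM2457 the log2 changes were 0.10 and 0.05. Of 50 translation factor genes, 28 were lower and 6 higher, with a median of -0.17 that became 0.36 on the spike-in scale. Of 16 NRF2 targets, which handle oxidative stress, 12 were lower and 1 higher, with a median of -0.27 that became 0.27 on the spike-in scale.

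Of 18 genes of the circadian clock, 10 were higher and 2 lower, with a median of 0.25. Of 39 ZBTB genes, zinc finger factors with a BTB domain, 23 were higher and 9 lower, and the change was more negative under STM2457 than without it for 14 (3 on the spike-in scale). Of 29 transcribed unitary pseudogenes, 14 were higher and none lower, with a median of 0.55. The 21 snoRNA genes tested, whose RNAs have no poly(A) tail, held 9 called lower and none higher, with a median of -0.80 that stayed at -0.28 on the spike-in scale, and the 25 snoRNA host genes of the list had a median of 0.06; which snoRNA belongs to which host was not matched.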
